A study of Thermothelomyces thermophilus ATCC 42464 with 24 samples.

Results

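RNA-seq libraries of Myceliophthora thermophila mycelium grown on glucose were compared between a strain labelled ΔlaeA and 3 strains labelled Δgrf-1, Δgrf-2 and Δgrf-3. M. thermophila is a thermophilic filamentous fungus that degrades plant cell walls. The members were chosen by label only, as every glucose library of these strains that held read counts, so 7 of the 24 titled libraries of the series (23 with counts) entered the comparison. There were 2 libraries of ΔlaeA, and 5 of the Δgrf strains, namely replicates 1 and 2 of Δgrf-1, replicate 2 of Δgrf-2 and replicates 1 and 2 of Δgrf-3. All strains were derived from the wild type (WT) and grown at 45 °C in minimal medium with 2% glucose, and mycelium was taken at 24 h. In the study's methods the coding region of laeA was replaced by a neo resistance cassette and that of each grf gene by a bar cassette, with Cas9 and a guide RNA. The marker and the deleted gene therefore differ together between the groups and cannot be told apart. No WT library entered the comparison, so a gene that moved alike in all 4 strains shows no difference here. The labels number the replicates and name no separate cultures, so the p-values reflect only how far these samples vary, which may be technical variation.

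LaeA is a nuclear protein with the fold of a methyltransferase. In Aspergillus it is known as a global regulator of secondary metabolism, the pathways that make polyketides, nonribosomal peptides, terpenes and pigments, whose genes often lie side by side as clusters. The grf genes encode proteins that the study calls growth regulatory factors and places in the regulatory network of LaeA. The comparison asks which transcripts set the strain labelled ΔlaeA apart from those labelled as grf deletions.

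The target sites of the guide RNAs that were used to make these strains are shown because they lie in the genes that the labels name. They do not show which library came from which strain. The sequences were read from the study's primer table and are given 5′ to 3′, and the capitals mark the last 10 bases, next to the PAM.
laeA: gccgaaaacgGCCGCTGGTA
grf-1: gatcggaacaTCACATCCAA
grf-2: gacaagagacACGGATCCAA
grf-3: gtctgccccgTGTCCACTAC
The grf-2 target lay 2 bases after the A of the start codon in the primer that copies the start of its coding region. The other 3 targets were not found in such a primer.

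The deleted genes were examined first. laeA (Mycth_2294559) stood at 294 and 281 CPM (a gene's count divided by its library's total and scaled as counts per 1000000, with totals adjusted by the TMM method) in the ΔlaeA libraries. It stood at 13.9 and 12.8 CPM in Δgrf-1, 13.6 CPM in Δgrf-2, and 10.97 and 11.9 CPM in Δgrf-3. Both libraries labelled ΔlaeA thus held more laeA counts than any other library compared, against the label, and the log2 fold change was 4.51 ± 0.11 with an edgeR quasi-likelihood adjusted p of 1.91e-06. Log2 values are given ± SE throughout. Counts per gene do not show from which part of the locus the reads came. Every direction given here rests on the labels, and ΔlaeA means the libraries labelled so. Rises and falls are those of ΔlaeA against the Δgrf libraries, not against WT, unless another reference is named.

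The grf genes were not lowest in the libraries labelled with their own deletion either. grf-1 (Mycth_37566) stood at 66.5 and 82.4 CPM in ΔlaeA, against 205 and 202 CPM in Δgrf-1, 121 CPM in Δgrf-2, and 100.1 and 92.5 CPM in Δgrf-3, so that its highest values came from the libraries labelled with its deletion. grf-3 (Mycth_2309668) showed the like order, with 33.1 and 25.8 CPM in ΔlaeA, 94.4 and 68.7 CPM in Δgrf-3, and 38.0 to 41.8 CPM in the other 3 libraries. Both were lower in ΔlaeA than in all 5 Δgrf libraries, but the differences of -0.95 ± 0.37 (adjusted p = 0.0836) and -0.94 ± 0.40 (adjusted p = 0.109) did not pass the edgeR test. Without Δgrf-3 replicate 2, or without both Δgrf-3 libraries, grf-1 was called lower (-1.08 with adjusted p = 0.0421, and -1.24 with adjusted p = 0.0163). grf-2 (Mycth_2089183), described as a fungal transcriptional regulatory protein, had 82.2 and 89.6 CPM in ΔlaeA and 78.5 to 114 CPM in the Δgrf libraries, among which that of Δgrf-2 held 114 CPM. cre-1 (Mycth_2310085), the carbon catabolite repressor, which is intact by the labels in all 7 libraries, stood at 301.8 and 319 CPM in ΔlaeA and at 546 to 655 CPM in the Δgrf libraries. The groups did not overlap and cre-1 passed the adjusted p (-0.89 ± 0.11, edgeR adjusted p = 0.00175), but it missed the 2-fold threshold.

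Totals of the 7 libraries ran from 18753916 to 22376871 counts, and 8785 to 8835 genes had at least 1 count. The detection floor was set at 3 counts, or 0.134 to 0.160 CPM, and covers counting error only. The replicates of Δgrf-3 stood apart from each other, with 949 genes at least 2-fold apart, against 15 genes in ΔlaeA and 7 in Δgrf-1. In a principal component analysis the first component, with 66.8% of the variance, held the ΔlaeA libraries at -57.6 and -54.0. It placed Δgrf-1 at 35.1 and 33.9, Δgrf-3 replicate 1 at 32.9, Δgrf-2 at 4.40 and Δgrf-3 replicate 2 at 5.22. Δgrf-2 and Δgrf-3 replicate 2 thus lay nearest to ΔlaeA. Leaving out either of them ended no call of a gene named in the text.

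Of 8517 genes tested, 609 were higher and 271 lower in ΔlaeA (edgeR quasi-likelihood test, with a difference of at least 2-fold and a Benjamini-Hochberg adjusted p under 0.05), which is 7.15% and 3.18% of the genes tested. At an unadjusted p below 0.05 the number was 3885. The median log2 fold change was 1.65 among the higher genes and -1.37 among the lower ones. At least 4-fold differences were found in 203 higher and 57 lower genes, and at least 16-fold differences in 43 and 10. Both ΔlaeA libraries lay above all 5 Δgrf libraries in 2273 genes (26.7% of those tested) and below all 5 in 2185 genes (25.7%). All 609 higher calls and 269 of the 271 lower calls were among these. The Δgrf library nearest to ΔlaeA was Δgrf-3 replicate 2 in 225 and Δgrf-2 in 196 of the 609 higher genes, and a library of Δgrf-1 in 23 and 25. Without ΔlaeA replicate 1 the counts were 242 higher and 86 lower, and without its replicate 2 they were 412 and 164. The single ΔlaeA library left in these fits is assumed to vary like the others. Without both Δgrf-1 libraries they were 374 and 142.

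**Figure D1:**
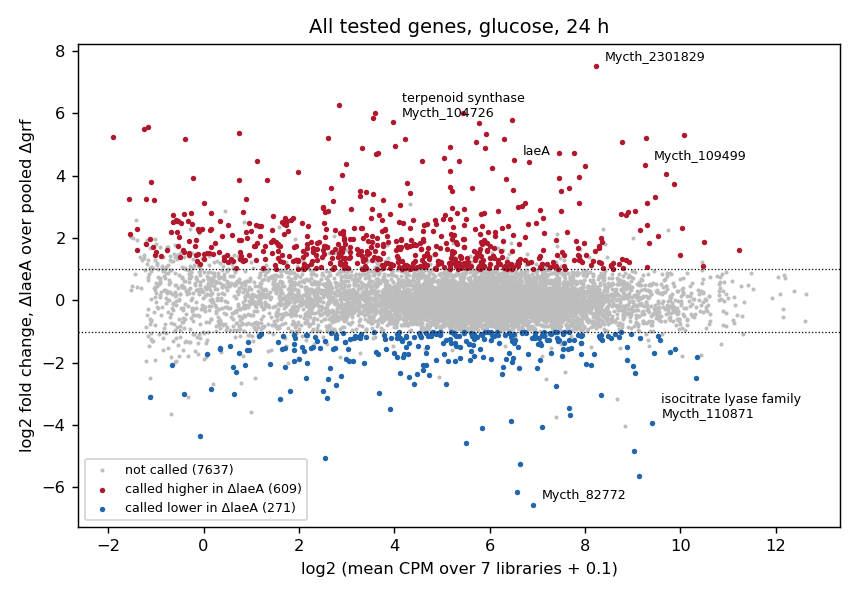
Log2 fold change of ΔlaeA over the pooled Δgrf libraries (vertical axis) against log2 of the mean CPM over the 7 libraries plus 0.1 (horizontal axis) for 8517 genes, with dotted lines at 2-fold. Red points are the 609 genes called higher and blue points the 271 called lower in ΔlaeA, and both directions span low and high levels.

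Glucose transporters carry the sugar into the cell, and glycolysis and gluconeogenesis then break it down or rebuild it. Of 6 genes of carbon metabolism and sugar uptake that the study names, edgeR called 1 higher (16.7%, against 7.15% of all genes) and the other 5 were not called. The study chose these genes on these samples, so the list is not independent evidence of a direction. The called gene was the glucose transporter gene Mycth_98222, with 109.7 and 98.0 CPM in ΔlaeA against 4.22 and 3.67 CPM in Δgrf-1, 4.69 CPM in Δgrf-2, and 3.69 and 5.602 CPM in Δgrf-3. The difference of 4.57 ± 0.16 (edgeR adjusted p = 1.21e-05) was about the same against each strain. The second glucose transporter gene, Mycth_112491, had 506 and 391 CPM in ΔlaeA and 83.5 to 301.8 CPM in the Δgrf libraries. These values did not overlap either, but Δgrf-2 and Δgrf-3 replicate 2 lay far below the other 3, and the gene was not called (1.09 ± 0.52, adjusted p = 0.141). With all glucose libraries in the fit it was (1.36, adjusted p = 0.0270).

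The gluconeogenic genes were at similar or lower levels in ΔlaeA than in the Δgrf libraries, and their WT levels are given below. pck (Mycth_2315623), for phosphoenolpyruvate carboxykinase, had 638 and 642 CPM in ΔlaeA and 576 to 1703 CPM in the Δgrf libraries, with the highest value in Δgrf-3 replicate 1 (-0.58 ± 0.39, adjusted p = 0.286). fbp1 (Mycth_2306943), for fructose-1,6-bisphosphatase, had 89.1 and 79.5 CPM in ΔlaeA, against 222 and 232 CPM in Δgrf-1, 144 CPM in Δgrf-2, and 397 and 106 CPM in Δgrf-3. It was lower in both ΔlaeA libraries than in all others and was not called by edgeR (-1.38 ± 0.49, adjusted p = 0.0632). It was called lower by DESeq2 (-1.38, adjusted p = 0.00628), with library totals in place of TMM (-1.45, adjusted p = 0.0481), with all libraries in the fit (-1.28, adjusted p = 0.0271), without Δgrf-3 replicate 2 (-1.57, adjusted p = 0.0215) and without both Δgrf-3 libraries (-1.24, adjusted p = 0.00967), so its call depends on these choices. Phosphoglycerate kinase (Mycth_2316240) of glycolysis had 2395 and 2029 CPM in ΔlaeA and 1302 to 2028 CPM in Δgrf (0.40 ± 0.17), and the cellodextrin transporter gene cdt-2 (Mycth_114107) had 8.52 and 8.15 CPM and 4.54 to 11.1 CPM (0.19 ± 0.38).

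Of 7 further regulators named in the study, laeB was called higher and clr-2 lower (14.3% each, against 7.15% and 3.18% of all genes). laeB (Mycth_2295350), which encodes a LaeA-like methyltransferase, stood at 555 and 578 CPM in ΔlaeA. In the Δgrf libraries it had 200.01 and 197 CPM in Δgrf-1, 199.7 CPM in Δgrf-2, and 217 and 139 CPM in Δgrf-3. All 5 lay well below ΔlaeA (1.57 ± 0.16, edgeR adjusted p = 0.000823). clr-2 (Mycth_38704), whose product activates cellulase genes, had 6.56 and 7.29 CPM in ΔlaeA and 13.9 to 31.3 CPM in the Δgrf libraries, the lowest of them in Δgrf-3 replicate 1 (-1.73 ± 0.34, adjusted p = 0.00847). This call was lost without ΔlaeA replicate 1 (-1.66, adjusted p = 0.0949) or replicate 2 (-1.82, adjusted p = 0.0612). xlnR (Mycth_2310145), another activator of cellulase and xylanase genes, was lower in both ΔlaeA libraries than in all Δgrf libraries, at 23.8 and 27.6 CPM against 35.9 to 52.5 CPM, but by less than 2-fold (-0.67 ± 0.18, adjusted p = 0.0246). The differences of clr-1 (Mycth_2298863), hac1 (Mycth_2310995), amyR (Mycth_2301920) and Mycth_90344 lay between -0.22 and 0.23 and did not pass.

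**Figure D2:**
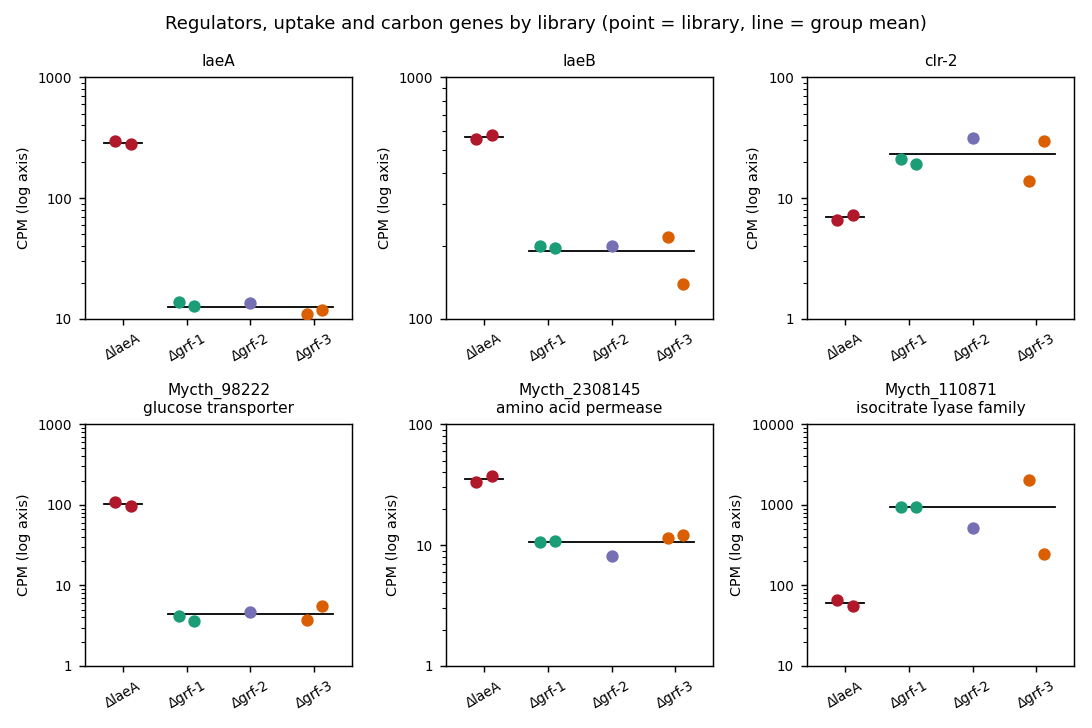
CPM on logarithmic axes of 6 genes in the libraries of ΔlaeA, Δgrf-1, Δgrf-2 and Δgrf-3, with 1 point per library and lines at the means of the 2 ΔlaeA and the 5 Δgrf libraries. laeA, laeB, Mycth_98222 and Mycth_2308145 stand higher and clr-2 and Mycth_110871 lower in both ΔlaeA libraries than in every Δgrf library.

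Among 9 secretion genes named in the study 1 was called higher (11.1%, against 7.15% of all genes), and among 5 amino acid permease genes 1 of the 5 was. Of the permease genes 3 were higher without Δgrf-3 replicate 2, and 2 without Δgrf-2, by DESeq2 or with all libraries in the fit. These lists, like that of the regulators, were chosen by the study on these samples and are not independent evidence of a direction. Mycth_2316209, a translocation protein gene, had 526 and 549 CPM in ΔlaeA and 229 to 245.4 CPM in Δgrf, a narrow spread (1.19 ± 0.08, edgeR adjusted p = 0.000161). sec72 (Mycth_2314749) had 722 and 702 CPM in ΔlaeA against 374 to 439 CPM in Δgrf. It passed the adjusted p without reaching 2-fold (0.77 ± 0.10, adjusted p = 0.00172). The permease gene Mycth_2308145 had 33.1 and 36.96 CPM in ΔlaeA and 8.06 to 12.1 CPM in Δgrf (1.73 ± 0.16, adjusted p = 0.000596). A second permease gene, Mycth_2299723, did not overlap between the groups, with 64.5 and 66.2 CPM in ΔlaeA, but Δgrf-2 and Δgrf-3 replicate 2 (40.97 and 43.3 CPM) lay near ΔlaeA and the other 3 at 12.6 to 14.3 CPM, and it was not called (1.39 ± 0.53, adjusted p = 0.0792). It was called without Δgrf-2 (1.64, adjusted p = 0.0481), without Δgrf-3 replicate 2 (1.68, adjusted p = 0.0342) and by DESeq2 (1.39, adjusted p = 0.0269). Of the 6 genes that carry a symbol in the RefSeq annotation, namely phy1, cbdA, ganA, lcc1, gla1 and cat1, none was called by edgeR, and 1 had an unadjusted p below 0.05. Their differences lay between -0.93 and 0.42.

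Genes of secondary metabolism were the group with the largest share of calls among the lists by description. Polyketide and nonribosomal peptide synthetases carry the growing product on phosphopantetheine arms, a condensation domain joins amino acids, and terpenoid synthases close the rings of terpenes. Of 21 tested genes with such core activities 6 were higher (28.6%, against 7.15% of all genes tested) and 1 was lower (4.76%, against 3.18%). The differences of the list ran from -5.24 to 5.73, with a median of 0.21 against -0.01 over all genes. Leaving out either ΔlaeA library left 3 higher and the lower one was not called. Without both Δgrf-1 libraries 4 were higher, and without Δgrf-2 or Δgrf-3 replicate 2 there were 2 lower. Of 12 tested cytochrome P450 genes 3 were higher (25.0%) and the other 9 were not called, although 1 was lower without Δgrf-3 replicate 2. Of 24 tested tailoring enzymes 4 were higher (16.7%) and 2 lower (8.33%), and 1 was higher without ΔlaeA replicate 1.

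Mycth_104726, a terpenoid synthase, had 53.2 and 51.5 CPM in ΔlaeA, against 0.458 and 0.550 CPM in Δgrf-1, 1.14 CPM in Δgrf-2, and 0.592 and 2.14 CPM in Δgrf-3 (5.73 ± 0.46, edgeR adjusted p = 0.000395). Next to it in the gene order of the RefSeq assembly lies Mycth_112815, a cytochrome P450 and thus of the family of oxygenases that often modify terpenes. It showed 110.5 and 111 CPM in ΔlaeA, 2.34 and 2.57 CPM in Δgrf-1, 9.51 CPM in Δgrf-2, and 2.50 and 13.8 CPM in Δgrf-3 (4.16 ± 0.67, adjusted p = 0.00439). Both genes were higher in Δgrf-2 and Δgrf-3 replicate 2 than in the other Δgrf libraries, though far below ΔlaeA. Their neighbour Mycth_39133, which has no description and was singled out after its values were seen, followed the same pattern, with 559 and 504 CPM in ΔlaeA and 5.18 to 105 CPM in Δgrf. Its difference of 3.94 ± 1.09 (adjusted p = 0.0285) was not called without ΔlaeA replicate 1 (3.86) or 2 (4.00), without Δgrf-1 replicate 1 (3.66), without Δgrf-3 replicate 1 (3.68), or without both Δgrf-1 libraries (adjusted p = 0.0707). DESeq2 gave it no adjusted p.

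Mycth_115501, with a phosphopantetheine attachment site, had 624.6 and 768 CPM in ΔlaeA, 9.16 and 8.75 CPM in Δgrf-1, 61.5 CPM in Δgrf-2, and 8.88 and 43.9 CPM in Δgrf-3 (4.72 ± 0.82, edgeR adjusted p = 0.00547). Mycth_2022110, described as a lycopene cyclase, an enzyme of carotenoid synthesis, had 58.5 and 56.0 CPM in ΔlaeA and 2.64 to 6.56 CPM in Δgrf (3.46 ± 0.29, adjusted p = 0.000413). All Δgrf libraries were low for this gene. Among the tailoring enzymes the aromatic-ring hydroxylase Mycth_108407 had 2552 and 2531 CPM in ΔlaeA against 46.6 to 434 CPM in Δgrf, the highest of them in Δgrf-3 replicate 2 (4.05 ± 0.82, adjusted p = 0.00928). Mycth_109870, an FAD-linked oxidase, had 1531 and 1497 CPM in ΔlaeA and 139 to 468 CPM in Δgrf (2.41 ± 0.50, adjusted p = 0.0101). Without ΔlaeA replicate 1 neither passed (4.05 with adjusted p = 0.0628, and 2.40 with adjusted p = 0.0754), and the second did not pass without replicate 2 (2.42, adjusted p = 0.0558).

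The other P450 genes called were Mycth_112051 (2.07 ± 0.46) and Mycth_102965 (1.53 ± 0.22), and the first was not called without ΔlaeA replicate 1 (1.98) or 2 (2.16), or without both Δgrf-1 libraries (1.72). Of the tailoring genes that fell, Mycth_2067982, a chloroperoxidase, which can attach chlorine to a product, had 0.280 and 0.193 CPM in ΔlaeA. It had 4.07 and 5.18 CPM in Δgrf-1, 12.8 CPM in Δgrf-2, and 6.19 and 11.7 CPM in Δgrf-3 (-5.06 ± 0.74, edgeR adjusted p = 0.00293). The ΔlaeA values rest on 5 and 4 counts. The O-methyltransferase Mycth_2066662 had 3.03 and 2.70 CPM in ΔlaeA and 6.97 to 10.03 CPM in Δgrf (-1.52 ± 0.21, adjusted p = 0.00230).

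**Figure D3:**
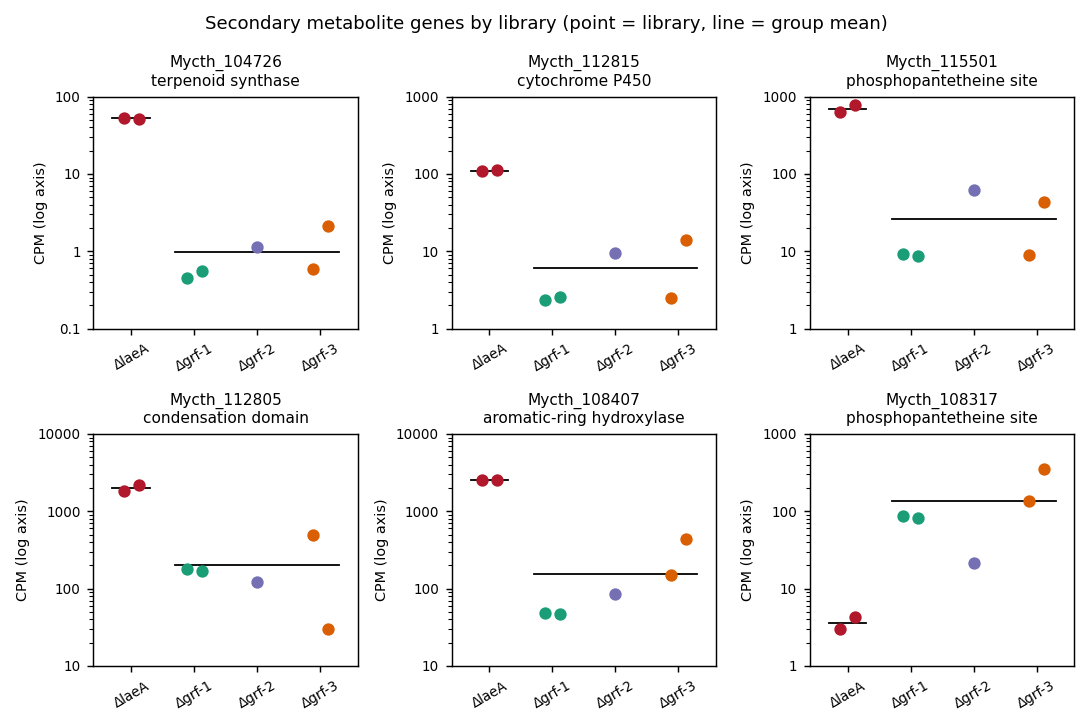
CPM on logarithmic axes of 6 genes of secondary metabolism in the libraries of ΔlaeA, Δgrf-1, Δgrf-2 and Δgrf-3, with 1 point per library and lines at group means. Mycth_104726, Mycth_112815, Mycth_115501, Mycth_112805 and Mycth_108407 stand higher and Mycth_108317 lower in both ΔlaeA libraries than in all 5 Δgrf libraries, which differ widely among themselves.

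Called genes were then placed in the gene order of the RefSeq assembly ASM22609v1, which was used for names and order only. Of the 607 higher genes that could be placed, 222 (36.6%) lay directly next to another higher gene, whereas 11.7% of all 8498 placed and tested genes lay next to one. Of the 271 lower genes 55 (20.3%) lay next to another lower gene, against 5.85% of all. Runs of at least 3 neighbours called in the same direction numbered 29 among the higher genes (102 genes) and 5 among the lower (19 genes). These are descriptions of this assembly, and no test of the grouping was made. Reads shared between overlapping neighbours were not examined.

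The longest run held 7 higher genes on chromosome 1. In order they are Mycth_2116408, Mycth_40734, Mycth_112805 with a condensation domain, Mycth_104717 (an ABC transporter-like protein), Mycth_59137, Mycth_112802 (crotonase core) and Mycth_109499 (a transporter of the major facilitator superfamily). A condensation domain beside transporters and other enzymes is the make-up of many fungal nonribosomal peptide clusters, although the description text does not name a product here. Mycth_112805 had 1819.9 and 2164 CPM in ΔlaeA, against 179.9 and 168 CPM in Δgrf-1, 122 CPM in Δgrf-2, and 500.5 and 30.1 CPM in Δgrf-3 (3.31 ± 0.78, edgeR adjusted p = 0.0160). Mycth_109499 had 1811 and 2012 CPM in ΔlaeA and 23.5 to 200.1 CPM in Δgrf (4.35 ± 0.61, adjusted p = 0.00264). The other 5 genes had differences of 2.49 to 3.13. Summed over the 7 genes the libraries held 6843 and 7448 CPM in ΔlaeA, 713 and 704 CPM in Δgrf-1, 572 CPM in Δgrf-2, and 1665 and 154 CPM in Δgrf-3. The replicates of Δgrf-3 were thus the highest and the lowest of the Δgrf group. Without ΔlaeA replicate 1 only Mycth_109499 was still called (Mycth_112805 gave 3.44 with adjusted p = 0.0818). Without its replicate 2, or without both Δgrf-1 libraries, Mycth_109499 and Mycth_2116408 were (Mycth_112805 gave 3.18 with adjusted p = 0.0770, and 3.19 with adjusted p = 0.105).

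A run of 6 lower genes lay on chromosome 4 and included Mycth_82772, the gene with the largest fall of the 8517 tested. Its genes are Mycth_2064854 (a SANT domain, found in DNA-binding and chromatin proteins), Mycth_82782, Mycth_11658 (a transferase), Mycth_108317 with a phosphopantetheine attachment site, Mycth_69746 and Mycth_82772. Mycth_82772 had 1.07 and 2.41 CPM in ΔlaeA, 189 and 191 CPM in Δgrf-1, 30.5 CPM in Δgrf-2, and 285 and 139 CPM in Δgrf-3 (-6.56 ± 1.04, edgeR adjusted p = 0.00407). Mycth_108317 had 2.97 and 4.25 CPM in ΔlaeA, 87.9 and 83.0 CPM in Δgrf-1, 21.4 CPM in Δgrf-2, and 138 and 357 CPM in Δgrf-3 (-5.24 ± 1.21, adjusted p = 0.0151). The 6 genes together held 34.5 and 34.2 CPM in ΔlaeA and 423 to 2408 CPM in the Δgrf libraries, the lowest of them in Δgrf-2. Mycth_82782 (-5.63 ± 1.03), Mycth_69746 (-6.16 ± 0.89), Mycth_11658 (-4.09 ± 0.86) and Mycth_2064854 (-2.69 ± 0.46) fell as well. Without ΔlaeA replicate 1 the call held for Mycth_69746 alone (Mycth_82772 gave -6.11 with adjusted p = 0.0572, Mycth_108317 gave -5.02 with adjusted p = 0.132). Without replicate 2 the calls of Mycth_108317 (-5.54), Mycth_82782 (-5.60) and Mycth_11658 (-3.79) were lost, and without both Δgrf-1 libraries that of Mycth_108317 (-5.57).

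Of the other runs of 5 higher genes, that on chromosome 4 held Mycth_2306020, Mycth_2306025, Mycth_2306027, Mycth_16301 and Mycth_2306028, none with a described product. Together they had 5398 and 5246 CPM in ΔlaeA and 753 to 1323 CPM in Δgrf, and the largest difference was that of Mycth_2306025 (743 and 839 CPM against 14.9 to 101.3 CPM, 4.30 ± 0.66, edgeR adjusted p = 0.00360). The next gene but one after this run, Mycth_2306031, was called lower (-1.55 ± 0.29), and the gene between them, Mycth_2306029, was not called. Mycth_2306020 alone of these lost its call without ΔlaeA replicate 1 (1.97), ΔlaeA replicate 2 (1.91) or both Δgrf-1 libraries (1.65). The run on chromosome 6 held Mycth_2310975, Mycth_2310976, Mycth_2113078, Mycth_2120988 and Mycth_2310977, with 214 and 200.3 CPM in ΔlaeA and 27.8 to 41.3 CPM in Δgrf. Its Δgrf libraries were close to each other, its differences ran from 1.65 to 3.52, and no single library or strain left out ended a call there.

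**Figure D4:**
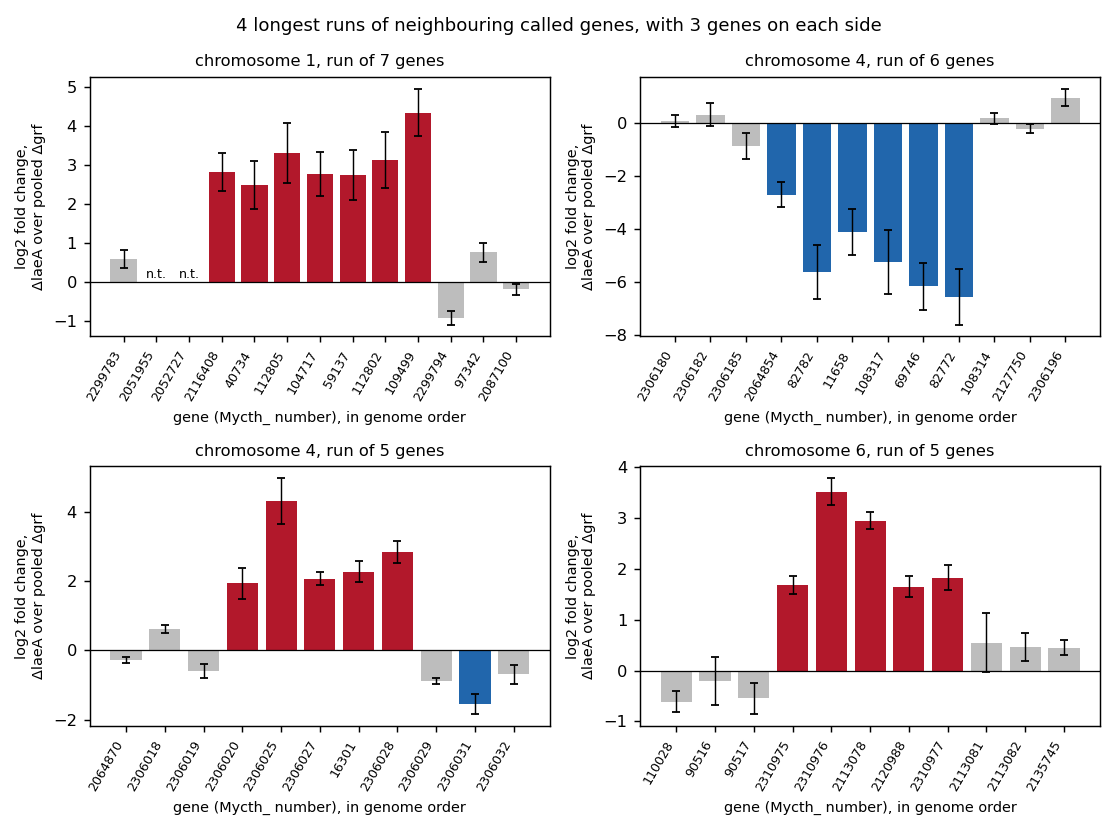
Log2 fold change of ΔlaeA over the pooled Δgrf libraries (bars, ± SE) for the genes of the 4 longest runs of neighbouring called genes and 3 genes on each side, in genome order. Red bars are called higher, blue bars called lower, grey bars not called, and n.t. marks genes with too few counts to be tested; apart from Mycth_2306031, the flanking genes were not called.

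Enzymes of central carbon metabolism changed singly. Of 17 such genes by description 2 were higher and 2 lower (11.8% each, against 7.15% and 3.18% of all genes), with a median of -0.03. DESeq2 called 3 lower, and without ΔlaeA replicate 1 there was 1 call in each direction. Mycth_117063, with the domain of NAD-dependent glycerol-3-phosphate dehydrogenase, which links glycolysis to glycerol, had 40.9 and 37.3 CPM in ΔlaeA and 0.319 to 0.865 CPM in Δgrf (5.86 ± 0.29, edgeR adjusted p = 4.61e-05). Mycth_103702, an aldose 1-epimerase, had 55.9 and 48.2 CPM in ΔlaeA and 8.34 to 22.8 CPM in Δgrf (1.97 ± 0.36, adjusted p = 0.00669), and missed the adjusted p without ΔlaeA replicate 1 (1.86, adjusted p = 0.0709). The genes lower in ΔlaeA than in Δgrf were of other routes. Mycth_110871 belongs to the family of isocitrate lyase and phosphorylmutase. Isocitrate lyase opens the glyoxylate cycle, which makes sugar precursors from fatty acids or acetate. It had 66.1 and 55.7 CPM in ΔlaeA, 940.0 and 948 CPM in Δgrf-1, 512 CPM in Δgrf-2, and 2006 and 244 CPM in Δgrf-3 (-3.93 ± 0.85, adjusted p = 0.0122). Even the lowest Δgrf library lay above ΔlaeA, yet the call was lost without ΔlaeA replicate 1 (-4.06, adjusted p = 0.105) or 2 (-3.82, adjusted p = 0.0911) or without both Δgrf-1 libraries (-3.92, adjusted p = 0.0619). Mycth_109978, a pyruvate carboxyltransferase, had 178 and 172 CPM in ΔlaeA and 337 to 444 CPM in Δgrf (-1.11 ± 0.13, adjusted p = 0.00138).

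Of 33 tested transporters of the major facilitator superfamily 4 were higher and 2 lower (12.1% and 6.06%, against 7.15% and 3.18% of all genes). With all libraries in the fit 8 were higher, and without ΔlaeA replicate 1 or 2, 1 was lower. Besides Mycth_109499, the transporter gene Mycth_112498 had 153 and 159.6 CPM in ΔlaeA and 28.1 to 45.1 CPM in Δgrf (2.20 ± 0.18, edgeR adjusted p = 0.000353). The sugar transporter gene Mycth_103797 had 16.3 and 13.4 CPM in ΔlaeA and 0.592 to 3.59 CPM in Δgrf (2.995 ± 0.57, adjusted p = 0.00752). It lost the call without ΔlaeA replicate 1 (2.85, adjusted p = 0.0719) or both Δgrf-1 libraries (2.65, adjusted p = 0.0538). Mycth_2051606 fell, with 14.02 and 10.9 CPM in ΔlaeA and 25.7 to 48.9 CPM in Δgrf (-1.71 ± 0.28, adjusted p = 0.00443), and Mycth_2022670 rests on 0 and 2 counts in ΔlaeA against 6 to 16 counts in Δgrf. Its call was lost without ΔlaeA replicate 1 (adjusted p = 0.176) or 2 (adjusted p = 0.0576) or both Δgrf-1 libraries (adjusted p = 0.0522). Of 8 tested genes of nitrogen uptake 1 was higher (12.5%, against 7.15% of all genes), the permease gene Mycth_100401 (1.94 ± 0.46), which was not called without ΔlaeA replicate 1 (1.85) or 2 (2.01).

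Carbohydrate-degrading enzymes, by which the fungus breaks down cellulose and hemicellulose, had 4 calls. Of 55 tested, 3 were higher (5.45%, against 7.15% of all genes) and 1 lower (1.82%, against 3.18%), with a median of 0.12. By edgeR none was higher without ΔlaeA replicate 1, without its replicate 2 there were 1 higher and 0 lower, without Δgrf-3 replicate 1 there were 5 higher, without Δgrf-3 replicate 2 there were 3 lower of 54, and without Δgrf-2 or by DESeq2 there were 2 lower. The glycoside hydrolase family 16 gene Mycth_110061 had 471 and 517 CPM in ΔlaeA and 145 to 313 CPM in Δgrf (1.26 ± 0.26), and lost its call without ΔlaeA replicate 1 (1.32) or 2 (1.18) or both Δgrf-1 libraries (1.15). The endoglucanase gene Mycth_109444 had 59.9 and 53.8 CPM in ΔlaeA and 22.9 to 34.7 CPM in Δgrf (1.07 ± 0.16). It fell below 2-fold without ΔlaeA replicate 1 (0.99) or both Δgrf-3 libraries (0.95), and with library totals in place of TMM (0.99). Mycth_2065851, also of family 16, had 9 and 13 counts in ΔlaeA and at most 1 count in a Δgrf library. The carbohydrate esterase gene Mycth_2019397 had 1.79 and 1.01 CPM in ΔlaeA and 3.46 to 6.33 CPM in Δgrf (-2.003 ± 0.36, edgeR adjusted p = 0.00586), and was not called without ΔlaeA replicate 2 (-1.65, adjusted p = 0.0557).

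In the lists of transcription factor and chromatin genes by description the calls were falls. Outside both lists, Mycth_107295, described as an aflatoxin biosynthesis regulatory protein, was called higher (1.84 ± 0.09, edgeR adjusted p = 4.61e-05). Of 36 tested transcription factor genes 1 was lower (2.78%, against 3.18% of all genes) and 35 were not called, with a median of -0.24. Of 36 tested chromatin and histone genes 3 were lower (8.33%, against 3.18% of all genes) and 33 were not called, with a median of -0.23. None of the 3 was called without ΔlaeA replicate 1, and 1 gene was higher without its replicate 2 or without Δgrf-2. At the level of libraries, 14 of the 36 transcription factor genes lay below all Δgrf libraries in both ΔlaeA libraries, and 2 lay above them, where 25.7% and 26.7% of all genes did so. The chromatin genes called were the SANT-domain genes Mycth_2064854, given above, and Mycth_109046 (41.999 and 46.6 CPM in ΔlaeA against 80.2 to 119 CPM in Δgrf, -1.10 ± 0.18) and the high mobility group gene Mycth_2070581 (-1.63 ± 0.39). Mycth_2064854 (-2.70) and Mycth_109046 (-1.03) were not called without ΔlaeA replicate 1. Mycth_2070581 was not called without replicate 1 (-1.43), without replicate 2 (-1.89), or without both Δgrf-1 libraries (-1.67). The transcription factor gene was the zinc finger gene Mycth_122893 (-1.27 ± 0.40, edgeR adjusted p = 0.0440), which was not called without ΔlaeA replicate 1 (-1.22) or 2 (-1.34), without Δgrf-1 replicate 1 (-1.25) or 2 (-1.26), without both (-1.20), or with 1 coefficient per strain (-1.13, adjusted p = 0.0745).

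Housekeeping groups showed few calls. No gene was called by edgeR among 12 glycosyltransferases, 12 chaperones, 11 peptidases and 7 genes of mitochondrial respiration. At an unadjusted p below 0.05 there were 4, 6, 3 and 2 such genes, and DESeq2 called 0, 1, 1 and 1 lower. Without Δgrf-3 replicate 2 there was 1 lower chaperone, peptidase and mitochondrial gene each, without its replicate 1 there was 1 lower chaperone gene, and without Δgrf-2 there were 1 lower mitochondrial and 1 higher peptidase gene. Of 20 ribosomal protein genes 1 was higher, Mycth_2068188, described as ribosomal protein S2 (1.36 ± 0.22), and of 20 genes of protein turnover 1 was higher, the RING finger gene Mycth_2069178 (1.25 ± 0.27). Each is 5.0% of its list, against 7.15% of all genes. Without ΔlaeA replicate 1 neither was called (1.31 and 1.19), and Mycth_2069178 was not called without replicate 2 (1.31). Their medians ran from -0.38 to 0.25. Of 13 transposon-related genes 1 had enough counts to be tested by edgeR and did not reach an unadjusted p of 0.05.

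**Figure D5:**
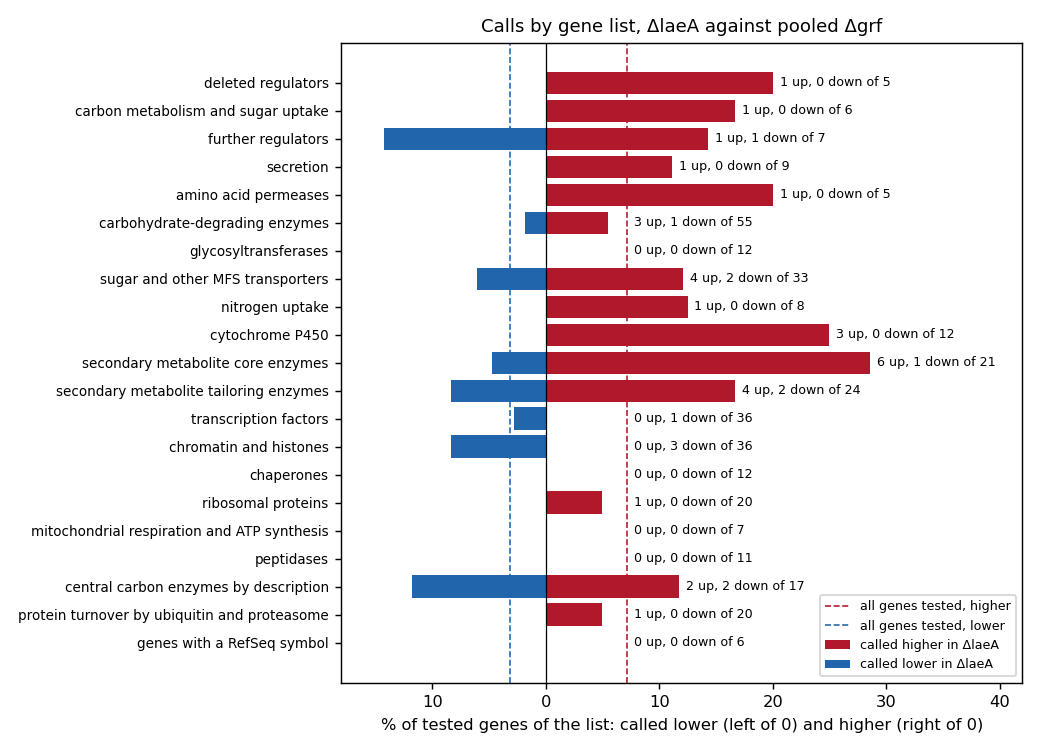
Share of the tested genes of each list called higher (red, right of 0) and lower (blue, left of 0) in ΔlaeA than in the pooled Δgrf libraries, in percent, with the counts printed beside the bars and dashed lines at the shares of all 8517 genes (7.15% higher, 3.18% lower). Secondary metabolite core enzymes (6 of 21) and cytochrome P450 genes (3 of 12) have the longest bars to the right, and short lists hold few genes per bar.

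Only 58 of the 609 higher and 27 of the 271 lower genes have a description. The rises of the 4 genes chosen for size among all genes were those of Mycth_2301829, Mycth_2295298, Mycth_2307942 and Mycth_97899. Mycth_2301829 had 1137 and 939.6 CPM in ΔlaeA, against 2.44 and 2.70 CPM in Δgrf-1, 11.1 CPM in Δgrf-2, and 6.65 and 5.19 CPM in Δgrf-3 (7.53 ± 0.55, edgeR adjusted p = 0.000320). It opens a run of 4 higher genes on chromosome 2, of which Mycth_2301830 had 1569.7 and 1281 CPM in ΔlaeA and 36.2 to 51.9 CPM in Δgrf (5.10 ± 0.16), and Mycth_2301831 and Mycth_2301832 gave 4.01 ± 0.46 and 2.20 ± 0.55. These 3 neighbours were singled out after their values were seen, and the last lost its call without ΔlaeA replicate 1 (2.12) or 2 (2.27). Mycth_97899 had 156 and 135 CPM in ΔlaeA and 1.60 to 3.64 CPM in Δgrf (6.02 ± 0.26, adjusted p = 3.17e-05). Mycth_2295298 rose by 6.27 ± 0.54 and Mycth_2307942 by 6.02 ± 0.59. The protein kinase-like gene Mycth_2078222 had 27.98 and 27.6 CPM in ΔlaeA and 1.71 to 4.01 CPM in Δgrf (3.51 ± 0.29).

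Further falls with a description were found in genes of varied function. Mycth_2107104, a zinc-binding alcohol dehydrogenase, had 7.74 and 8.44 CPM in ΔlaeA, 124 and 119 CPM in Δgrf-1, 67.9 CPM in Δgrf-2, and 246 and 35.0 CPM in Δgrf-3 (-3.87 ± 0.80, edgeR adjusted p = 0.0104). Mycth_2106260, an ABC transporter-like gene, had 88.9 and 95.1 CPM in ΔlaeA and 226 to 379.7 CPM in Δgrf (-1.72 ± 0.22, adjusted p = 0.00190). It kept its call whichever library was left out. Mycth_2070001 (-2.46 ± 0.59), the P-type ATPase gene Mycth_102797 (-2.07 ± 0.56) and the MYND zinc finger gene Mycth_2055557 (-1.71 ± 0.41) were also lower. Without ΔlaeA replicate 1 the calls of Mycth_2107104 (-3.80), Mycth_2070001 (-2.51), Mycth_102797 (-2.19) and Mycth_2055557 (-1.73) were lost, and likewise without its replicate 2 (-3.94, -2.42, -1.97 and -1.69). Without both Δgrf-1 libraries they were lost too (-3.85, -2.28, -2.01 and -1.49), and that of Mycth_102797 also without Δgrf-1 replicate 1 (-2.04) or 2 (-2.07).

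Set against each strain alone in a fit of the same 7 libraries, ΔlaeA had 764 higher and 296 lower genes against Δgrf-1 (8.88% and 3.44% of 8606 tested). There were 240 and 128 against Δgrf-2 (2.79% and 1.49%) and 474 and 244 against Δgrf-3 (5.51% and 2.84%). The 3 comparisons share the ΔlaeA libraries, and Δgrf-2 had 1 library that is assumed to vary like the others, so the counts do not rank the strains. Some genes differed by about the same amount from every strain. Against Δgrf-1, Δgrf-2 and Δgrf-3 the difference was 4.71, 4.47 and 4.47 for Mycth_98222, 1.51, 1.503 and 1.66 for laeB, and 1.21, 1.13 and 1.18 for Mycth_2316209. In others Δgrf-2 stood nearer to ΔlaeA. Here the values were -6.75, -4.11 and -6.92 for Mycth_82772, 6.28, 3.50 and 4.70 for Mycth_115501, and 2.52, 1.01 and 2.11 for Mycth_2306020. Whether strains differ from each other was not tested.

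The glucose calls were next set beside ΔlaeA against WT on Avicel, a microcrystalline cellulose, in 12 libraries that share none with the glucose comparison (2 per strain at 2, 4 and 6 d). There 424 genes were higher and 933 lower in ΔlaeA at 2 d (4.84% and 10.7% of 8757 tested). At 4 d there were 804 higher and 880 lower (9.18% and 10%), and at 6 d 213 and 730 (2.43% and 8.34%). Of the 607 higher genes tested in both, 103 (16.97%) were also higher on Avicel at 2 d, 199 (32.8%) at 4 d and 44 (7.25%) at 6 d. These genes made up 24.6%, 25.9% and 21.7% of the Avicel lists. In the opposite direction, 104 (17.1%) were lower at 2 d, 89 (14.7%) at 4 d and 128 (21.1%) at 6 d, so at 6 d more of them were lower than higher. Of the 270 lower genes tested in both, 70 (25.9%) were lower at 2 d, 96 (35.6%) at 4 d and 30 (11.1%) at 6 d, and 12, 17 and 21 were higher. The reference strain differs between the carbon sources, and what the difference of days and strains contributes was not tested.

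Of the 609 higher and 271 lower genes, 7 and 3 had the same call at all 3 times, and 350 and 121 had it at none. Genes not tested on Avicel are counted among the latter. The matching shares over all genes were not computed, so these counts are a description only. Mycth_97899 was higher throughout on Avicel (2.58 ± 0.28 at 2 d, 4.37 ± 0.30 at 4 d, 1.07 ± 0.26 at 6 d, edgeR adjusted p of 1.26e-05, 1.12e-07 and 0.0105), as was laeA (4.45 ± 0.20, 4.93 ± 0.20 and 1.40 ± 0.17). The other 3 of the 4 largest rises differed from it. Mycth_2295298 was lower at every time on Avicel (-6.20 ± 0.37, -4.47 ± 0.31 and -4.84 ± 0.29). On glucose it also lay lower in ΔlaeA than in WT, as given below, so its rise was over the Δgrf libraries only. Mycth_2307942 was higher at 2 d (4.93 ± 0.89) and 4 d (3.32 ± 0.83) and lower at 6 d (-7.05 ± 0.99), and Mycth_2301829 was called only at 6 d (9.95 ± 0.80). The transporter gene Mycth_98222 was higher at 2 d (3.17 ± 0.18) and 4 d (4.09 ± 0.18) and lower at 6 d (-2.06 ± 0.17), and laeB was higher at 2 d (1.04 ± 0.32) and 4 d (1.94 ± 0.32) only. For Mycth_98222 and laeB the early times on Avicel and glucose had the same direction. The study named laeB for its rise in these Avicel libraries at 2 d and 4 d, so its direction there was fixed by that choice. Mycth_112805, of the run on chromosome 1, was lower at 2 d (-1.17 ± 0.31) and higher at 4 d (2.36 ± 0.32) and 6 d (1.77 ± 0.32). The terpenoid synthase Mycth_104726 was higher at 4 d (2.93 ± 0.39) and lower at 6 d (-3.01 ± 0.39), and clr-2, lower on glucose, was higher at 4 d (2.56 ± 0.48) and 6 d (3.50 ± 0.52). None of the 5 genes of the falling run other than Mycth_2064854 was called on Avicel at any time, with differences from -3.66 to 1.26. That gene was lower at 4 d (-1.54 ± 0.41).

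The level of the called genes in the 2 WT libraries on glucose was described without a test. The scale was set over the 11 glucose libraries with counts, and WT took no part in the calls. On the log2 scale WT lay nearer to the Δgrf mean for 310 of the 609 higher genes (50.9%) and nearer to ΔlaeA for 299. For the 271 lower genes these numbers were 136 and 135. Of the deleted genes, laeA had 278 and 266 CPM in ΔlaeA, 15.8 and 24.7 CPM in WT and 10.4 to 13.2 CPM in Δgrf. In WT grf-1 had 109.5 and 187.5 CPM, grf-2 180.4 and 179.8 CPM, and grf-3 61.2 and 53.8 CPM. pck had 602 and 609 CPM in ΔlaeA, 36.1 and 53.1 CPM in WT and 555 to 1617 CPM in Δgrf. fbp1 had 84.1 and 75.3 CPM in ΔlaeA, 37.9 and 21.1 CPM in WT and 102 to 377 CPM in Δgrf. These 2 genes thus lay higher than WT in ΔlaeA and in all Δgrf libraries. The study named them for rises over WT in these strains, so this direction restates that choice. Mycth_98222 had 104 and 92.9 CPM in ΔlaeA and 15.03 and 15.6 CPM in WT, and laeB 524 and 548 CPM in ΔlaeA and 239 and 169.6 CPM in WT, and both lay higher in ΔlaeA than in WT. The study named Mycth_98222 for a rise over WT on glucose, so its direction here restates that choice. It named laeB for a rise over WT on Avicel. Mycth_104726 had 50.2 and 48.8 CPM in ΔlaeA and 25.1 and 22.3 CPM in WT, and Mycth_115501 had 589.8 and 728 CPM in ΔlaeA and 1038 and 774 CPM in WT, both above all Δgrf libraries in WT as well. Mycth_2301829 stood at 1073 and 890.4 CPM in ΔlaeA and at 1164 and 391 CPM in WT. Mycth_2295298 had 23.3 and 21.99 CPM in ΔlaeA and 74.9 and 147.9 CPM in WT. The P450 gene Mycth_112051 had 25.2 and 22.22 CPM in ΔlaeA and 174 and 187 CPM in WT. Mycth_2295298 and Mycth_112051 thus lay lower in ΔlaeA than in WT, and lowest in Δgrf. Mycth_2301829 was also lowest in Δgrf, but its ΔlaeA values lay between those of the WT libraries. Mycth_97899 and Mycth_2307942 lay higher in both ΔlaeA libraries than in both WT libraries. The run around Mycth_112805 differed between the WT libraries, with this gene at 1718 and 2051 CPM in ΔlaeA and 1069.7 and 136 CPM in WT. The falling run was present in WT, with Mycth_82772 at 1.01 and 2.29 CPM in ΔlaeA and 69.0 and 84.6 CPM in WT, and the isocitrate lyase family gene Mycth_110871 was low in both, at 62.4 and 52.8 CPM in ΔlaeA and 69.9 and 20.9 CPM in WT.

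The labels name mycelium as the only material, and genes linked to pigments, which LaeA controls in other fungi, are given as values. The laccase-like gene Mycth_2063133 had 28.5 and 24.4 CPM in ΔlaeA and 3.42 to 9.79 CPM in Δgrf (2.00 ± 0.31, edgeR adjusted p = 0.00376), and was not called without ΔlaeA replicate 1 (1.88, adjusted p = 0.0507). The tyrosinase-like gene Mycth_2063591 had 7.85 and 8.30 CPM in ΔlaeA and 5.78 to 15.6 CPM in Δgrf (-0.31 ± 0.36). The scytalone dehydratase gene Mycth_102118, an enzyme of melanin synthesis, had 0 and 1 counts in ΔlaeA and 0 to 10 counts in Δgrf. The second tyrosinase-like gene, Mycth_2066939, had 0 counts in all 7 libraries. The catalase gene cat1 (Mycth_80916) had 28.04 and 21.5 CPM in ΔlaeA and 14.5 to 88.9 CPM in Δgrf, with Δgrf-3 replicate 1 highest and its replicate 2 lowest. Only the laccase-like gene among these passed the test.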

How the data were processed

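The authors aligned reads to the species' genome with TopHat2 2.0.8b, counted reads on unique exons with HTSeq (0.5.4p2 in the submitters' processing notes, another version in the study's methods) and deposited counts per gene. No source used here gives the strand setting or the genome build. The deposited column named for Δgrf-2 replicate 1 holds RPKM, computed by the authors, and was used only for gene lengths. Dividing the mean count shares of Δgrf-1 by it gave lengths within 0.01 bases of a whole number for all 8865 genes above 0. Its values thus match the Δgrf-1 counts, in spite of its name. The table holds 9110 genes, and its 2 lines of column totals were left out. Counts of the 7 libraries (totals in the report) were scaled by TMM, filtered by filterByExpr and tested in edgeR 4.0.16 (R 4.3.3, limma 3.58.1) with its robust quasi-likelihood fit. The groups were ΔlaeA and Δgrf, with 5 residual degrees of freedom. That fit takes the 5 Δgrf libraries as independent, although Δgrf-1 and Δgrf-3 gave 2 libraries each. Libraries of the same strain are not independent samples of the Δgrf group. A call needed at least 2-fold and an adjusted p (Benjamini-Hochberg) under 0.05. The SE is the log2 fold change divided by the square root of F. A fold change between groups near 0 counts depends on the prior count. Avicel libraries had a fit of their own.

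Tested on simulated data of this comparison (8517 genes), the adjusted p was passed by 57% of genes set to 2-fold, 96% set to 4-fold and 0.144% left unchanged. The simulation drew every library independently, with nothing shared by libraries of the same Δgrf strain. These rates therefore may not hold for the real libraries. Descriptions, for 865 genes, came from the study's supplementary gene table, of which only the first part in order of ID was used here, and names and gene order from RefSeq ASM22609v1 (9087 genes matched). Gene lists were 5 from the study's text and 16 by words of the descriptions. The members and lists were chosen with earlier results of these data known. Named were the deleted genes, the genes of the 5 lists and those with a RefSeq symbol; up to 3 called genes per direction of each list by description; up to 10 described and 4 of all genes per direction with the largest differences, provided that groups did not overlap and that the higher one averaged at least 10 CPM; and the 4 longest runs of neighbours. A WT level was compared as mean log2 (CPM + 0.5). Alternatives were RLE size factors, library totals only, other count filters, DESeq2 1.42.0, the thresholds of the study (RPKM of 20 or more, with DESeq2), 1 coefficient per strain, more libraries in the fit, the replicate number as a block, the adjusted p alone, and each library or both libraries of a strain left out. Figures used Python 3.11.15 and matplotlib 3.10.9.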

Additional observations from a re-analysis of the deposited data

Results flagged for a closer look

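Among the 5 Δgrf libraries, 1 library lay far from the other 4 (a gap to its nearest neighbour of over 0.710 of the range) in 15 of 105 named genes tested, or 14.3%. Chance flags about 1 in 20 groups of like samples, but these are libraries of 3 strains and genes chosen in part by size, so the share is not set against that rate. It was Δgrf-3 replicate 1 in 8 genes, Δgrf-2 in 4 and Δgrf-3 replicate 2 in 3, and a library of Δgrf-1 in none.

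Δgrf-3 replicate 1 stood highest for pck (1703 CPM, next 900.0), the ER chaperone gene Mycth_80427 (1322 CPM, next 579.8), the ER chaperone gene Mycth_2300892 (342 CPM, next 265), phy1 (83.0 CPM, next 60.1), Mycth_112802 (186 CPM, next 60.1), Mycth_2078222 (4.01 CPM, next 2.29) and Mycth_97899 (3.64 CPM, next 2.06), and lowest for grf-2 (78.5 CPM, next 109.9). Δgrf-3 replicate 2 stood lowest for laeB (139 CPM, next 197), highest for Mycth_108407 (434 CPM, next 151), and was the 1 Δgrf library with a count of Mycth_2065851 (0.0456 CPM, next 0).

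Δgrf-2 stood highest for cre-1 (655 CPM, next 569.9), the P450 gene Mycth_112051 (12.2 CPM, next 5.65) and Mycth_2306025 (101.3 CPM, next 33.1), and lowest for the carbohydrate esterase gene Mycth_2019397 (3.46 CPM, next 5.65).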

How the results depend on the processing

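On the adjusted p alone 1467 genes were higher and 1388 lower in ΔlaeA, and by the study's thresholds 376 and 192. Without both Δgrf-1 libraries the counts were 374 and 142. With 1 library left out they ran from 242 to 707 higher and from 86 to 363 lower. The lowest counts came without ΔlaeA replicate 1 and the highest without Δgrf-3 replicate 2. Scaling by library totals put the median of all genes at -0.08 and gave 533 higher and 346 lower, and DESeq2 gave 651 and 332. No named call changed direction under any of these fits. Of 72 named calls, 35 were lost without ΔlaeA replicate 1, 26 without its replicate 2, 19 without both Δgrf-1 libraries, and 0 to 3 under each other fit. Replicate numbers did not pair the samples (correlations of same-numbered deviations of -0.05 to 0.04), and the replicate block gave 637 higher and 283 lower genes. Among named genes the block ended the call of Mycth_122893 (-1.23, adjusted p = 0.0595) and added those of fbp1 and Mycth_2299723. On Avicel, library totals only left every count within 1.5-fold. With 2 ΔlaeA libraries depth limits genes of few counts, and the spread between Δgrf libraries limits those of large but uneven differences.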
